A study of Mus musculus with 8 samples.

Results

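The 3 *Rbfox* genes of the mouse and 6 genes for proteins of the large assembly of splicing regulators (LASR), the complex in which Rbfox proteins work, were followed in retinas that had lost much of their *Rbfox2* mRNA. The members were taken by gene symbol as *Rbfox1*, *Rbfox2*, *Rbfox3*, *Hnrnpm*, *Hnrnph1*, *Hnrnpul2*, *Hnrnpc*, *Matr3* and *Ddx5*. All 9 were among the 17500 genes of the deposited table, and all 9 were among the 16797 genes tested. Whole retinas of 8 C57BL/6J mice aged 6 months were sequenced as poly(A)-selected RNA, with 1 library per mouse. The *Rbfox2*-/- group (labelled *Rbfox2* KD) held 4 mice, M893, M901, M902 and M909. Per the study's methods they were homozygous *Rbfox2* fl/fl mice carrying a Cre recombinase transgene that tamoxifen switches on across tissues, so the loss was not limited to 1 retinal cell type. The 4 control mice, M833, M894, M896 and M898, were per the methods heterozygous *Rbfox2* fl/+ animals of the same age, and whether they carried Cre was not stated. The labels give tamoxifen over 4 months for all 8 mice, whereas the study's text gives 4 months as the time since induction in the *Rbfox2*-/- mice. Its methods name corn oil as the vehicle given in place of tamoxifen but not which mice received it, so whether these controls received tamoxifen is not clear.

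Rbfox1, Rbfox2 and Rbfox3 are RNA-binding proteins with a single RNA recognition motif that binds GCAUG, most tightly when a U precedes it. They steer the inclusion of alternative exons and in the nucleus are bound to LASR, which contains hnRNP M, hnRNP H, hnRNP C, hnRNP UL2, Matrin-3, the helicase DDX5 and NF45, encoded by *Ilf2*. In the retina, Rbfox2 protein is known from retinal ganglion cells, horizontal cells and amacrine cells that use GABA. Since whole retinas were measured, fewer cells of a type and less RNA per cell cannot be told apart in any value below.

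The loxP sites of the floxed allele flank exons 6 and 7 of *Rbfox2*. In the longest annotated coding transcript, *Rbfox2*-204 (GENCODE M21, GRCm38), exon 6 lies at chr15:77105577-77105669 and exon 7 at chr15:77102879-77102939, both on the minus strand. They are shown because, by this numbering, they are the part of the gene that the allele removes and they encode part of the RNA recognition motif. Capitals mark bases that differ from *Rbfox2* in the corresponding exon of *Rbfox1* (chr16:7292185-7292277 and chr16:7294070-7294130, plus strand) and of *Rbfox3* (chr11:118502842-118502934 and chr11:118501569-118501629, minus strand).
Rbfox2 exon 6: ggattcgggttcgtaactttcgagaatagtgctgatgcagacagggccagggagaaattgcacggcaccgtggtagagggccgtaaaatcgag
Rbfox1, same exon: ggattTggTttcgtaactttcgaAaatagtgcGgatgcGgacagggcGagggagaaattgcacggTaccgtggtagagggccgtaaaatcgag
Rbfox3, same exon: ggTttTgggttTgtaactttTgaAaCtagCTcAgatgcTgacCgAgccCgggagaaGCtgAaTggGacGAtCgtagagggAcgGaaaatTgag
Rbfox2 exon 7: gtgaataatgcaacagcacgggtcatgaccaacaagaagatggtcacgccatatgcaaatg
Rbfox1, same exon: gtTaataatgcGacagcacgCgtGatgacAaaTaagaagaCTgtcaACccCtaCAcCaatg
Rbfox3, same exon: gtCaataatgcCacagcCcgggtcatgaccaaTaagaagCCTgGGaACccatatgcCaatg

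Over the 93 bases of exon 6, *Rbfox1* differed from *Rbfox2* at 7 bases (92.5% identity) and *Rbfox3* at 24 (74.2%). Over the 61 bases of exon 7 the order was the other way round, with 14 differences in *Rbfox1* (77.0% identity) and 12 in *Rbfox3* (80.3%). The longest run shared exactly by annotated transcripts of *Rbfox2* and *Rbfox1* was 29 bases, and that of *Rbfox2* and *Rbfox3* was 14 bases. Runs of this length are shorter than the study's reads, and the authors counted only reads that mapped to 1 place. Both exons together are 154 bases, 2.23% of the 6907 bases of *Rbfox2*-204, and 154 is not a multiple of 3. Exon numbers depend on the transcript. In *Rbfox2*-203 the 61-base exon is exon 6 and is followed by one of 54 bases, together 115 bases or 1.75% of that transcript, and which numbering the allele follows was not given in the sources used here.

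The targeted gene came first, as a check of the labels. *Rbfox2* (ENSMUSG00000033565, chr15:77078990-77307004 on the minus strand of GRCm38) had 143.8, 149.8, 156.8 and 148.1 CPM in control mice M833, M894, M896 and M898. CPM is a gene's deposited count scaled to the normalized size of its library. In M893, M901, M902 and M909 it had 53.9, 58.9, 53.6 and 59.4 CPM, so all 4 mice labelled *Rbfox2*-/- lay below all controls. The mean fell from 149.6 ± 5.39 CPM (SD, n = 4) to 56.5 ± 3.15 CPM (SD, n = 4), which left 37.7% of the control level. The log2 fold change was -1.41 (standard error 0.046, 95% interval -1.51 to -1.30), with an adjusted p of 5.51e-07 by edgeR (quasi-likelihood test, Benjamini-Hochberg adjusted) over all genes tested. This was the lowest p of the 16797 genes. Leaving out 1 mouse at a time kept the log2 fold change between -1.43 and -1.38, and the gene passed the threshold of 0.05 in every alternative run.

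The loss measured in counts was thus much larger than the share of the transcript that the allele removes, since 2.23% of *Rbfox2*-204 lies in the exon pair and the count fell by 62.3% (95% interval -64.8% to -59.5%). The deposited counts are sums per gene. They do not show from which exons the remaining 8503 to 11406 counts per *Rbfox2*-/- mouse came, or whether they came from cells that kept the intact gene. By protein staining, the study reported a few Rbfox2-positive cells left in the ganglion cell layer. It described the loss in amacrine cells of the inner nuclear layer as more modest. The controls had 26239 to 30008 counts on *Rbfox2*, so counting error was small beside the differences between mice.

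*Rbfox1*, the paralog also known as A2bp1 (chr16:5885355-7411526, plus strand), had 78.1, 85.4, 93.0 and 92.8 CPM in the controls, in the order M833, M894, M896 and M898. In M893, M901, M902 and M909 it had 89.6, 90.1, 82.2 and 78.5 CPM, all within the range of the controls. The log2 fold change was -0.04 (95% interval -0.18 to 0.11, adjusted p = 0.847 by edgeR (quasi-likelihood test, Benjamini-Hochberg adjusted)). In percent the interval runs from -11.9% to 7.80%, which leaves room for changes of that size.

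*Rbfox3*, which encodes the neuronal marker NeuN (chr11:118489762-118911597, minus strand), had 34.3, 42.2, 42.4 and 41.5 CPM in the same 4 controls. It had 43.6, 44.2, 38.9 and 37.9 CPM in the 4 *Rbfox2*-/- mice. The *Rbfox2*-/- mice M893 and M901 lay above all controls, but M902 and M909 did not, and the groups overlapped. The log2 fold change was 0.04 (95% interval -0.14 to 0.21, adjusted p = 0.875 by edgeR (quasi-likelihood test, Benjamini-Hochberg adjusted)), or -9.02% to 15.8%. The sign of this value rested on control M833: without it the log2 fold change was -0.03 (adjusted p = 0.812 by the same edgeR test) and that of *Rbfox1* was -0.09 (adjusted p = 0.446 by the same edgeR test).

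Neither paralog therefore had a rise that the test called, and the 3 genes were next set on a scale per transcript length to see how much *Rbfox* mRNA remained. The deposited FPKM values (fragments scaled to transcript length and library size) were used. In controls, *Rbfox2* was the highest of the 3, with 21.6, 23.1, 24.1 and 23.0 FPKM in M833, M894, M896 and M898, followed by *Rbfox1* with 14.8 to 18.2 FPKM and *Rbfox3* with 7.67 to 9.73 FPKM. The ranges of the 3 genes did not overlap in controls. In *Rbfox2*-/- retinas *Rbfox1* was highest, with 15.03 to 17.4 FPKM, and *Rbfox2* (8.27, 8.87, 8.07 and 8.996 FPKM in M893, M901, M902 and M909) overlapped *Rbfox3* (8.57 to 9.98 FPKM), with M893 and M902 below its lowest value.

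The sum of the 3 genes was 44.1 to 52.0 FPKM in controls and 32.4 to 35.9 FPKM in *Rbfox2*-/- retinas, 69.6% of the control mean. The sum of *Rbfox1* and *Rbfox3* alone was 26.1 ± 2.51 FPKM (SD, n = 4) in controls and 25.6 ± 1.91 FPKM (SD, n = 4) in *Rbfox2*-/- retinas. The share of *Rbfox2* in the sum was 46.8 ± 1.56% (SD, n = 4) in controls and 25.1 ± 1.84% (SD, n = 4) in *Rbfox2*-/- retinas, while that of *Rbfox1* was 34.5% against 47.7% and that of *Rbfox3* 18.7% against 27.2%. These shares are descriptions and follow from the loss of *Rbfox2*, so no test was made of them.

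**Figure D1:**
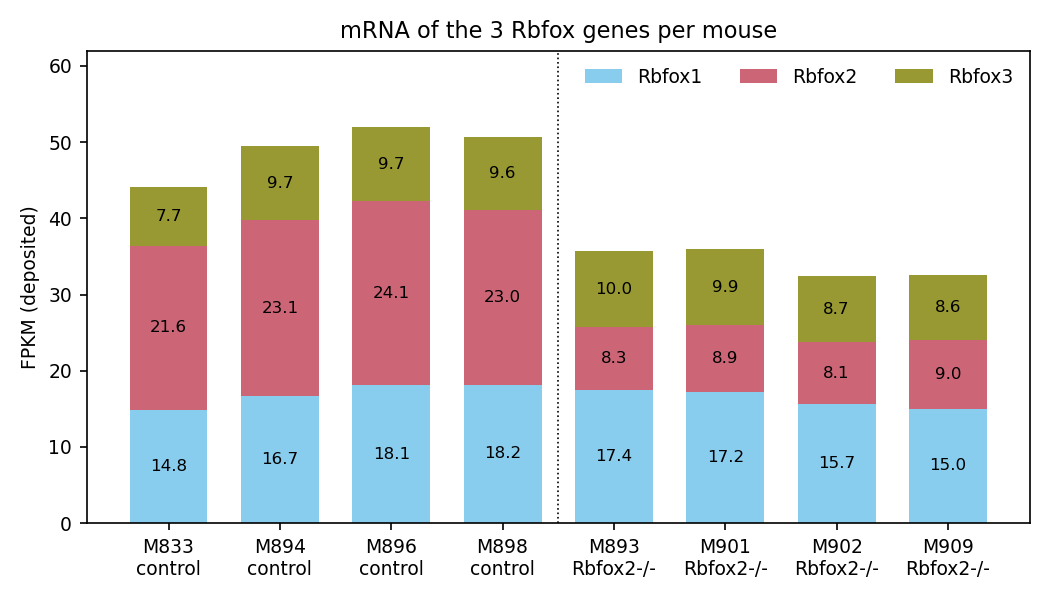
Stacked bars of deposited FPKM for *Rbfox1*, *Rbfox2* and *Rbfox3* in each of the 8 mice, controls on the left and *Rbfox2*-/- on the right, with each gene's FPKM written in its bar. The *Rbfox2* segment is 21.6 to 24.1 FPKM in controls and 8.07 to 8.996 FPKM in *Rbfox2*-/- mice, and the other segments overlap between the groups.

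The order of *Rbfox1* and *Rbfox2* depended on the length used. With CPM per kilobase of all annotated exons merged (8140 bases for *Rbfox2*, 4400 for *Rbfox1* and 5818 for *Rbfox3*), controls had 17.7 to 19.3 CPM per kilobase of *Rbfox2* and 17.7 to 21.1 of *Rbfox1*, ranges that overlap. *Rbfox3* was lowest on both scales in controls. On the merged-exon scale *Rbfox2* made up 40.8% of the sum in controls and 20.8% in *Rbfox2*-/- retinas, and the sum of the 3 genes was 73.9% of the control mean.

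The 3 mice lowest in *Rbfox1* were also the 3 lowest in *Rbfox3* and in markers of retinal ganglion cells. The summed marker level over 11 genes (*Rbpms*, *Pou4f1*, *Pou4f2*, *Pou4f3*, *Isl2*, *Sncg*, *Thy1*, *Nefl*, *Nefm*, *Nefh* and *Slc17a6*, all 11 detected in all 8 mice) was 810 CPM in control M833 and 1254 to 1302 CPM in the other 3 controls. In *Rbfox2*-/- retinas the sum was 1272, 1330, 1164 and 1003 CPM in M893, M901, M902 and M909. M833, M909 and M902, in that order, had the lowest marker sums and also the lowest values of both *Rbfox1* and *Rbfox3*.

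In M833 all 11 ganglion cell markers were at their lowest of the 8 mice, and their sum was 63.3% of that in the other controls. *Rbfox3* in M833 was 81.5% and *Rbfox1* 86.4% of the mean of the other controls, whereas *Rbfox2* was 94.9%. Between the groups, 0 of the 11 markers passed the adjusted threshold or an unadjusted p of 0.05 by edgeR's quasi-likelihood test, where 0.0655% and 13.3% of all genes did. The summed markers of GABAergic amacrine cells, given below, went the other way in M833, where they were highest of the 8 mice (1046 CPM). The study reports Rbfox1 protein in those cells too. The part of ganglion or amacrine cell RNA in the values of *Rbfox1* and *Rbfox3* was not tested.

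**Figure D2:**
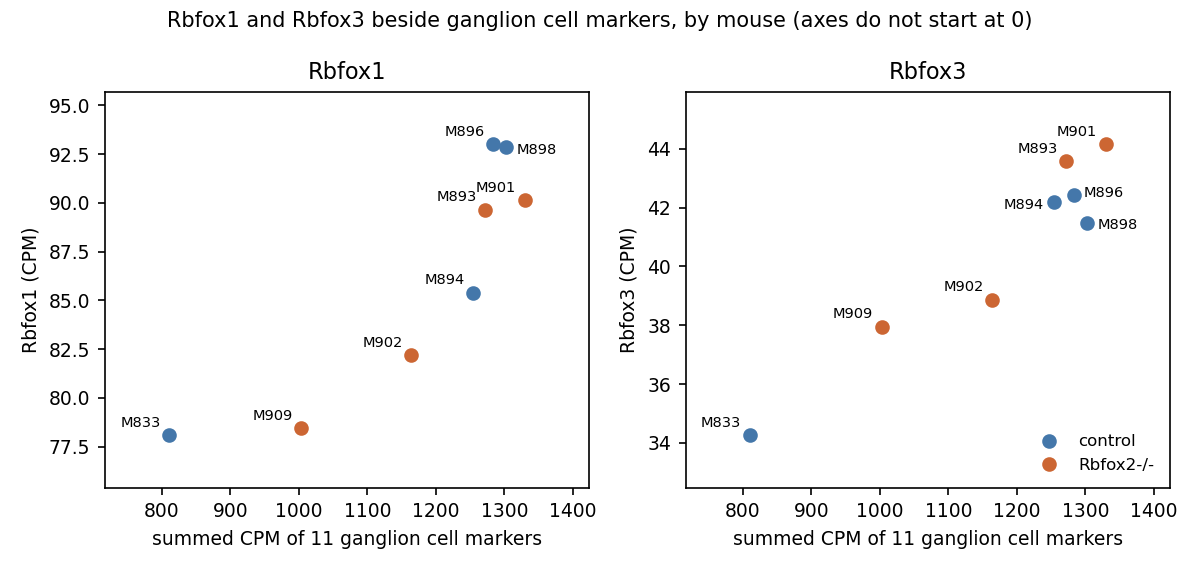
Each point is 1 mouse, with the summed CPM of 11 retinal ganglion cell markers on the horizontal axis and the CPM of *Rbfox1* (left) or *Rbfox3* (right) on the vertical axis, controls in blue and *Rbfox2*-/- in orange. M833, M909 and M902 are lowest on both axes in both panels, and the groups overlap.

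The other cell types in which Rbfox2 protein is known were also followed. The summed level of 11 markers of GABAergic amacrine cells was 969 to 1046 CPM in controls and 961 to 1032 CPM in *Rbfox2*-/- retinas, ranges that overlap. Of the 11, 8 were lower and 3 higher, and 0 were called, where 0.0655% of all genes were. At an unadjusted p under 0.05 by edgeR's quasi-likelihood test there were 2, where 13.3% of all genes passed. The groups did not overlap for 1, which was higher, where 7.03% of all genes did not. The 4 horizontal cell markers *Lhx1*, *Onecut1*, *Onecut2* and *Calb1* summed to 99.6 to 106 CPM in controls and to 81.6 to 85.6 CPM in *Rbfox2*-/- retinas, with no overlap. Such a sum gives most weight to its most abundant genes and does not show that all of them fell. Of the 4, 3 were lower and 1, *Lhx1*, was higher (log2 fold change 0.18, not called). The groups did not overlap for 2 of the 4, *Calb1* and *Onecut1*, where 7.03% of all genes did not. Where 0.0655% of all genes were called, 1 of the 4 was called, *Calb1*, a calcium-binding protein, with an adjusted p of 0.00341 by edgeR (quasi-likelihood test, Benjamini-Hochberg adjusted). Without M901 and M902, whose libraries are described below, the same test called 1 gene, *Rbfox2*, and so not *Calb1*. With all mice it called 11 genes, and a run on fewer mice has less power. Whether the call of *Calb1* depends on these libraries was therefore not tested. *Calb1* is expressed in amacrine and ganglion cells too. In sections of *Rbfox2*-/- retinas, the study reported that staining for calbindin, the protein of *Calb1*, appeared unaffected. It reported no Rbfox2 staining in horizontal cells there, and retinal morphology that appeared normal. The part of a change in horizontal cells in the fall of *Rbfox2* mRNA was not tested here.

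Among the LASR partners, the per-length levels in controls came in the order *Ddx5* (341 FPKM), *Hnrnph1* (176), *Hnrnpm* (102), *Matr3* (84.0), *Hnrnpc* (61.1) and *Hnrnpul2* (60.0), as means of 4 mice. *Hnrnpc* and *Hnrnpul2* overlapped between mice (60.7 to 61.4 against 59.2 to 62.3 FPKM), while the other neighbours in the order did not. Every partner was above the *Rbfox* genes on this scale in all 8 mice. On the scale per merged exon length *Ddx5* and *Hnrnph1* stayed first, and *Hnrnpul2* (48.1 CPM per kilobase) came before *Hnrnpc* (39.4), *Matr3* (36.8) and *Hnrnpm* (30.8).

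None of the 6 partners passed the adjusted threshold in *Rbfox2*-/- retinas, with fitted log2 fold changes from 0.01 to 0.12. By edgeR (quasi-likelihood test, Benjamini-Hochberg adjusted), 1 of the 9 members was called, *Rbfox2*, where 0.0655% of all genes tested were called (11 of 16797). DESeq2, which called 2.77% of the genes (465), also called *Rbfox2* and no other member. At an unadjusted p under 0.05 by the edgeR test, 2 of 9 members passed, *Rbfox2* and *Hnrnpc*, where 13.3% of all genes did. *Rbfox2* was the only member whose groups did not overlap, where 7.03% of all genes had groups that did not overlap. For the partners the counts were 1 of 6 at the unadjusted p and 0 of 6 without overlap, and neither is a result about the complex beside those shares.

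*Hnrnpc* encodes hnRNP C, which binds uridine tracts in nascent transcripts (chr14:52073377-52104028, minus strand). It had 174.5, 168.1, 170.6 and 167.9 CPM in the controls and 185, 198, 186 and 171 CPM in M893, M901, M902 and M909. Of the *Rbfox2*-/- mice, 3 lay above all controls, and M909 lay within their range. The log2 fold change was 0.12 (95% interval 0.02 to 0.22, unadjusted p = 0.0201, adjusted p = 0.297 by edgeR's quasi-likelihood test), or 8.78% with an interval of 1.64% to 16.4%. Without M901 and M902, which stand apart from the other libraries, it was 0.06 (adjusted p = 0.932 by the same edgeR test). That fit had fewer *Rbfox2*-/- mice and so less power.

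*Hnrnph1* encodes hnRNP H1, which binds runs of G and acts on exon choice (chr11:50376990-50386528, plus strand). It had 420, 397, 379 and 366 CPM in the controls and 408, 418, 432 and 416 CPM in the *Rbfox2*-/- mice in the same order. The *Rbfox2*-/- mouse M902 alone lay above all controls, since control M833 was second highest of the 8 mice. The log2 fold change was 0.10 (95% interval -0.0030 to 0.20, unadjusted p = 0.0557, adjusted p = 0.389 by edgeR's quasi-likelihood test). Without M833 it was 0.13 (unadjusted p = 0.0103, adjusted p = 0.174 by the same edgeR test). Without M901 and M902, again with less power, it was 0.08 (adjusted p = 0.932 by the same edgeR test).

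The other 4 partners differed less. *Hnrnpm*, an hnRNP that binds GU-rich sequence (chr17:33646233-33686860, minus strand), had 236.5 to 264.5 CPM in controls and 249 to 263 CPM in *Rbfox2*-/- retinas, with a log2 fold change of 0.05 (95% interval -0.05 to 0.15). *Ddx5*, the RNA helicase p68 (chr11:106780355-106789185, minus strand), had 1144 to 1265 CPM against 1170.2 to 1260 CPM and a log2 fold change of 0.04 (95% interval -0.06 to 0.14). *Hnrnpul2*, a relative of the scaffold protein hnRNP U (chr19:8820010-8834143, plus strand), had 334 to 362 CPM against 329.6 to 363 CPM and a log2 fold change of 0.03 (95% interval -0.06 to 0.13). *Matr3*, the nuclear matrix protein Matrin-3 on chromosome 18, had 353 to 402 CPM against 371 to 385 CPM and a log2 fold change of 0.01 (95% interval -0.08 to 0.11).

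In these 4 genes the *Rbfox2*-/- values overlapped the controls, with adjusted p between 0.646 for *Hnrnpm* and 0.919 for *Matr3* by edgeR (quasi-likelihood test, Benjamini-Hochberg adjusted). The upper ends of the intervals correspond to rises of 7.996% for *Matr3*, 9.40% for *Hnrnpul2*, 9.89% for *Ddx5* and 10.7% for *Hnrnpm*. Exons of *Hnrnpm* overlap those of *March2* over 14.7% of their length and exons of *Matr3* overlap those of *Gm28285* over 17.3%, both on the same strand, so some fragments of these genes cannot be assigned with certainty.

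**Figure D3:**
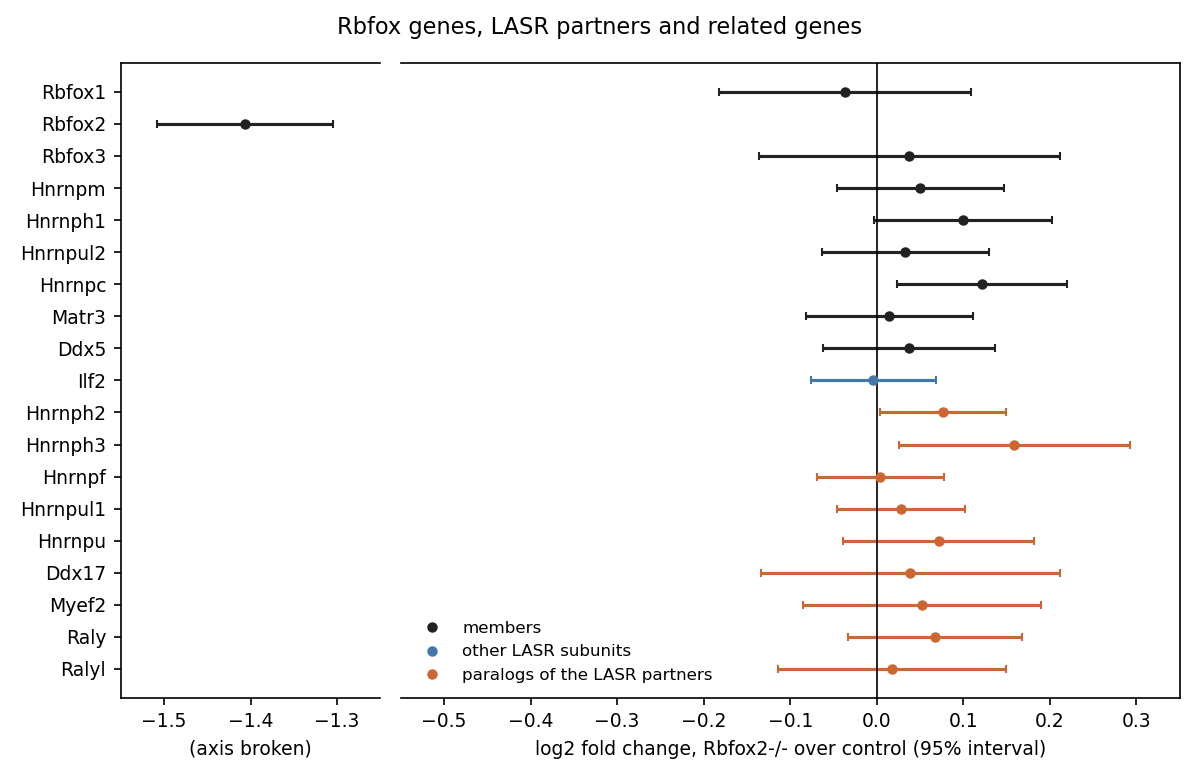
Points are log2 fold changes, *Rbfox2*-/- over control, with 95% intervals from edgeR's quasi-likelihood fit (n = 4 per group), on an axis broken between *Rbfox2* and the other genes and equal in scale on both sides. *Rbfox2* lies at -1.41, and the 8 other members lie between -0.04 and 0.12.

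All 6 partners had a fitted value above 0, with a median of 0.04 on the log2 scale, where the median of all genes tested was 0.00 and 50.7% of them were above 0. The direction was not the same under every setting. When 1 surrogate variable was added, 3 of the 6 were above 0, and without M901 and M902 5 of 6 were. Those libraries were the only ones with high counts of *Xist*, the transcript of the inactive X chromosome (277506 and 275967 counts, against 312 to 426 in the other 6 mice). Both are in the *Rbfox2*-/- group, so by this sign of female tissue the groups were not balanced for sex. The labels give no sex, and the fit had no covariate for it.

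A mean over the 6 partners, each set to 100% at its control mean, was 106.2%, 98.6%, 98.5% and 96.8% in M833, M894, M896 and M898, the controls. It was 103.2%, 105.6%, 106.1% and 102.1% in M893, M901, M902 and M909. The highest value of the 8 thus belonged to a control. In M833 *Hnrnpm*, *Matr3* and *Ddx5* were at their highest of all 8 mice, while *Rbfox1*, *Rbfox3* and the ganglion cell markers were at their lowest. The part of the composition of this retina in those values was not tested.

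**Figure D4:**
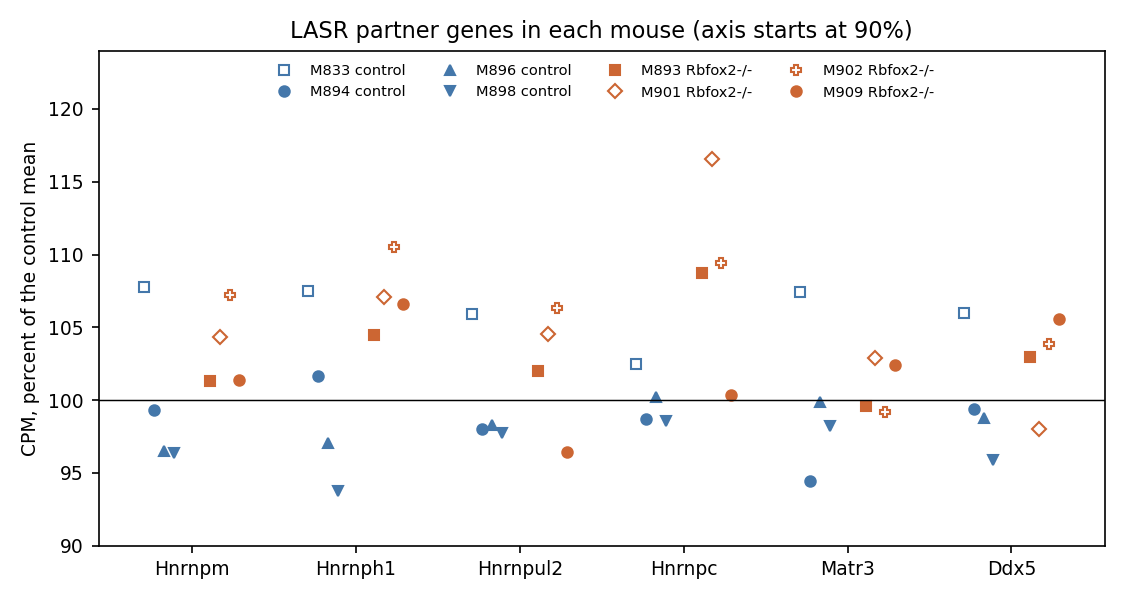
CPM of each LASR partner in each mouse as a percentage of that gene's control mean, on an axis that starts at 90%, with controls in blue and *Rbfox2*-/- in orange. Open symbols mark M833, M901 and M902, and control M833 lies among or above the *Rbfox2*-/- mice for all 6 genes.

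*Ilf2* and the paralogs of the partners were counted from a list chosen by identity. Of these 10 genes, 0 were called in either direction by edgeR (quasi-likelihood test, Benjamini-Hochberg adjusted), and 2 had an unadjusted p under 0.05, where 0.0655% and 13.3% of all genes tested did. Of the 10, 9 had a fitted value above 0, with a median of 0.05 on the log2 scale, where 50.7% of all genes were above 0 with a median of 0.00. The NF45 gene *Ilf2*, the one below 0, stood at -0.0038 (95% interval -0.08 to 0.07).

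The 2 genes with an unadjusted p under 0.05 belong to the hnRNP H family. *Hnrnph3* had 107 to 128 CPM in controls and 121 to 135 CPM in *Rbfox2*-/- retinas, a log2 fold change of 0.16 (95% interval 0.03 to 0.29, adjusted p = 0.316 by edgeR's quasi-likelihood test). *Hnrnph2*, which lies on the X chromosome, had 109.6 to 119.8 CPM against 119.4 to 121 CPM. Its log2 fold change was 0.08 (95% interval 0.0038 to 0.15, adjusted p = 0.360 by the same edgeR test). In the fit without M901 and M902, which has less power, the value was 0.07 for *Hnrnph2* (adjusted p = 0.910 by the same edgeR test). For *Hnrnph3* it was 0.09 (adjusted p = 0.932 by the same edgeR test). Control M833 was again inside the *Rbfox2*-/- range for both genes. *Hnrnpf*, the fourth gene of the family, was at 0.00 (95% interval -0.07 to 0.08). Transcripts of *Hnrnph1* share runs of up to 36 bases with *Hnrnph3* and 34 bases with *Hnrnph2*, which is shorter than a read.

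The 6 remaining paralogs lay between 0.02 for *Ralyl* and 0.07 for *Hnrnpu*, the hnRNP that anchors RNA to chromatin. *Ddx17*, the paralog of *Ddx5*, had 755 to 867 CPM in controls and 754 to 972 CPM in *Rbfox2*-/- retinas, a log2 fold change of 0.04 (95% interval -0.13 to 0.21). *Raly* (0.07) and *Ralyl* are relatives of *Hnrnpc*, *Myef2* (0.05) is a relative of *Hnrnpm*, and *Hnrnpul1* (0.03) is a relative of *Hnrnpul2*. None of these had groups that did not overlap.

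The Rbfox binding sequence was then looked for in the members' own mRNAs, since Rbfox proteins also bind outside introns. The motif TGCATG was searched on the transcript strand only, in the longest coding transcript of each gene; no other motif was searched. It occurred in 7 of the 9 members. *Rbfox2*-204 and the transcript of *Hnrnpc* held none, that of *Matr3* held 3 and that of *Rbfox3* held 2, and the rest held 1. Over 14925 genes 56.0% of longest coding transcripts held the motif. Among transcripts within 10% of each member's length, the share ran from 47.5% for *Hnrnph1* to 84.8% for *Rbfox2*-204. Beside those shares the count of 7 is not a result about the members. The 3 windows of the *Rbfox* genes are shown with the motif in capitals, the first in the coding part of *Rbfox1* at position 510 from the transcript's start, the others in the 3′ UTR of *Rbfox3* at positions 2247 and 3007.
Rbfox1 window: ccaagcggcTGCATGtgtccaaca
Rbfox3 window, first: aagagtaacTGCATGccctctctg
Rbfox3 window, second: cggtggcccTGCATGctgcagccg

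The genes whose pattern over the 8 mice was most like each *Rbfox* gene were named by the root mean square difference of log2(CPM + 1) after centring each gene on its mean. This is a description over 8 mice that share libraries. For *Rbfox1*, whose own pattern had a root mean square of 0.0954, the nearest were *Gng3* (0.0220), *Fut8* (0.0278) and *Mctp1* (0.0279). For *Rbfox3*, with 0.113 of its own, they were *Ppp2r2c* (0.0269), *Nrip3* (0.0279) and *Phospho1* (0.0280). *Gng3*, a G protein subunit, had 111 CPM in M833 and 122 to 130.5 CPM in the other controls.

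No gene followed *Rbfox2* as closely. Its own root mean square was 0.698, and the nearest genes were *Etnppl* at 0.276, *Sspn* at 0.343 and *Fam107a* at 0.358. *Etnppl*, the enzyme that breaks down phosphoethanolamine, had 29.6, 27.5, 49.9 and 41.0 CPM in M833, M894, M896 and M898 and 12.9, 16.2, 17.9 and 16.2 CPM in M893, M901, M902 and M909. All 4 *Rbfox2*-/- mice were below all controls, which the choice by likeness to *Rbfox2* itself favours, so no test of it is given. *Sspn* had 3.66 to 6.32 CPM in controls and 1.25 to 2.91 CPM in *Rbfox2*-/- retinas, and *Fam107a* 31.3 to 54.5 against 17.9 to 24.7 CPM. The controls of these genes varied far more than those of *Rbfox2*, with a coefficient of variation of 24.7% to 28.2% against 3.60%.

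The libraries held 160630226 to 211283591 counts on genes per mouse, so the 3 counts used as the detection limit equal at most 0.0189 CPM, a limit that covers counting error only. The precision of the members' values was set by the differences between 4 mice per group. The libraries of each group differed pairwise by more than sampling noise, and every mouse is 1 replicate.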

How the data were processed

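Whole-retina libraries of 8 mice, 4 *Rbfox2*-/- and 4 control, were grouped by the sample labels. The authors aligned reads to mm10 (GRCm38) with STAR, kept unique alignments and used HTSeq to count fragments on genes. They name both RefSeq and Ensembl gene models. The submitters' processing notes name CASAVA 1.8.2 and edgeR. The deposited table holds raw counts, which were tested here, and FPKM computed by the authors, which were used for levels per length without a test. Its normalized signal and its columns of the authors' own comparison (log2 fold changes, p-values, FDR) were not used.

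Genes were kept with filterByExpr (16797 of 17500), normalized by TMM and compared with the quasi-likelihood test of edgeR 4.0.16 (R 4.3.3) without covariates, with Benjamini-Hochberg adjustment over all genes tested and a threshold of 0.05. Intervals are 95% intervals of the fitted log2 fold change. The alternatives used DESeq2 1.42.0, limma 3.58.1, sva 3.50.0 with 1 surrogate variable, other normalizations and filters, and left out mice. On simulated counts, 92.5% of 200 genes changed 2-fold were called among 16711 tested, with 12 others, and 0 were called with no change. The changed genes had a mean count of at least 100, and changes smaller than 2-fold were not simulated. The rate therefore says nothing about changes as small as those fitted for the members other than *Rbfox2*. Positions, transcripts and sequences come from GENCODE M21 (GRCm38). Pairs of libraries within a group had a chi-square of 31.6 to 115 per gene.

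The genes named are the 9 members, another LASR subunit (*Ilf2*), paralogs of the partners, and the 3 genes most like each *Rbfox* gene, with a mean of at least 1 CPM. 1 gene of that rule and its list is not reported here. Cell type markers are named where their list is given. The members and lists were chosen with earlier results of these data known. Markers of rods, Muller glia, and pigment and ciliary epithelium were also summed.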

Additional observations from a re-analysis of the deposited data

Results flagged for a closer look

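Of 52 sets of 4 mice examined for a sample far from the others (Dixon's gap test at the 95% level), 4 had one, where chance gives about 2.6, and control M833 was the mouse in all 4. *Rbfox3* had 34.3 CPM in M833 and 41.5 to 42.4 CPM in the other 3 controls. *Hnrnpul2* had 362 CPM in M833 and 334 to 336 CPM in the others. *Hnrnpu*, a paralog of *Hnrnpul2*, had 670.2 CPM in M833 and 585 to 597.5 CPM in the others. The retinal ganglion cell markers summed to 810 CPM in M833 and to 1254 to 1302 CPM in the others. Chance flags about 1 in 20 such groups, and values from 1 mouse are not independent of each other.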

How the results depend on the processing

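*Rbfox2* was the 1 member called, and 0 of the 10 list genes were called, in all 19 settings. No paired analysis was possible because the labels pair no control mouse with an *Rbfox2*-/- mouse. The number of genes called moved most: 11 became 164 with edgeR's likelihood ratio test, 465 with DESeq2, 5 with 1 surrogate variable, 1 without M901 and M902, and 5 to 35 with 1 mouse left out. The causes were not tested. The share of *Rbfox2* in the *Rbfox* sum of controls was 46.8% by FPKM and 40.8% per merged exon length.

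Upper-quartile normalization turned *Hnrnpf* to -0.0025 and *Nrip3* to -0.0056 on the log2 scale. With 1 surrogate variable *Hnrnpm* was -0.00090, *Hnrnpul2* -0.028, *Matr3* -0.0082, *Ddx17* -0.058, *Ralyl* -0.025 and *Mctp1* 0.0041. Without M901 and M902 *Hnrnpul2* was -0.014, *Ddx17* -0.032, *Raly* -0.00043, *Ralyl* -0.038 and *Nrip3* -0.031. With 1 mouse left out in turn, these ranges crossed 0: *Rbfox1* -0.090 to 0.00010, *Rbfox3* -0.034 to 0.074, *Matr3* -0.012 to 0.048, *Ilf2* -0.023 to 0.018, *Hnrnpf* -0.016 to 0.021, *Ddx17* -0.029 to 0.096, *Ralyl* -0.021 to 0.056, *Gng3* -0.070 to 0.015, *Fut8* -0.092 to 0.00012, *Mctp1* -0.13 to 0.0062, *Ppp2r2c* -0.030 to 0.084, *Nrip3* -0.076 to 0.033 and *Phospho1* -0.050 to 0.069. With 4 mice per group, differences of a few percent were within the intervals, and depth was not the limit.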

Other observations

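The marker sums of 3 cell types not described above were as follows. Rod photoreceptor markers (8 genes) summed to 61966 to 66660 CPM in controls and 64304 to 69893 CPM in *Rbfox2*-/- retinas, ranges that overlap. Muller glia markers (8 genes) summed to 5809 to 6600 CPM in controls and 5244 to 5846 CPM in *Rbfox2*-/- retinas, which also overlap. Markers of the pigment and ciliary epithelium (8 genes) summed to 73.0 to 427 CPM in controls and 49.5 to 149 CPM in *Rbfox2*-/- retinas, and these overlap too. Controls M833 (73.0 CPM) and M896 (80.3 CPM) lay within the *Rbfox2*-/- range, whereas M894 (241 CPM) and M898 (427 CPM) lay above it. In this last list 7 of 8 genes were lower, with a median log2 fold change of -1.72. Among rod markers 7 of 8 were higher (median 0.08), and among Muller glia markers 5 of 8 were lower (median -0.09). The groups did not overlap for 2 rod markers, both higher, where 7.03% of all genes did not. They also did not for 1 Muller glia marker and 1 pigment and ciliary epithelium marker, both lower. By edgeR (quasi-likelihood test, Benjamini-Hochberg adjusted) 0 genes of these 3 lists were called, where 0.0655% of all genes were. At an unadjusted p under 0.05, which 13.3% of all genes had, there were 3 of 8 rod markers, 2 of 8 Muller glia markers and 4 of 8 pigment and ciliary epithelium markers.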
